A study of Mus musculus with 10 samples.

Results

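The Hox genes are 38 protein-coding genes in the files of a mouse whole-skin RNA sequencing study, out of 49671 gene IDs counted. They were chosen by symbol, as every protein-coding gene named Hoxa, Hoxb, Hoxc or Hoxd followed by a number in GENCODE M21, with Hoxc13 left out. The Hoxa cluster gave 11 of them, Hoxb 10, Hoxc 8 and Hoxd 9. Whole skin was taken at 22 weeks of age from 5 homozygous B6;129S4-Npytm2Rpa/J mice (NPYtet; 3 labelled female, 2 male) and from 5 wildtype siblings of that strain (WT; 2 labelled female, 3 male). The title of the study links the allele to overexpression of Npy, the gene for neuropeptide Y, and the Hoxa cluster lies on the same chromosome. All 10 libraries are poly(A) RNA, and the labels give each its own number. They name neither the body site of the skin nor the cells in which the allele acts, and p-values measure the spread between these libraries.

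Hox genes encode homeodomain transcription factors that lie in 4 clusters, and a gene's number gives its paralogue position in the cluster. In the embryo low numbers are used towards the head and high numbers towards the tail and the ends of the limbs. Adult fibroblasts of the skin keep a Hox pattern that marks the body site they came from, so the set of Hox transcripts in skin is often read as a positional address. Hox proteins bind DNA with partner proteins of the Pbx, Meis and Pknox families. Complexes of the Trithorax and Polycomb groups keep Hox genes on or off. In whole skin, fewer cells of a type and less RNA per cell cannot be told apart.

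Library totals ran from 23209405 to 53357695 reads. WT replicate 2 and NPYtet replicate 5 had the lowest scaling factors (0.696 and 0.652) and the fewest genes with a read (21144 and 19953, against 24710 to 26323 elsewhere), and mitochondrial genes took 9.26% of reads in NPYtet replicate 5 against 1.86% to 3.03% in the others. NPYtet replicate 1 is labelled female but held 1513 reads of the Y-linked Ddx3y and 0.0492 CPM of Xist. CPM are counts per unit of library size after TMM scaling for composition. Npy was at 0.094 to 2.86 CPM in the WT libraries (mean 1.57 ± 1.03, SD) and at 96.2 to 485 CPM in those of NPYtet (mean 224 ± 156). The fitted log2 fold change was 7.45, with an SE of 0.62 and an edgeR adjusted p of 0.000109, and the call was lost when these 3 libraries were left out.

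The signal of the 38 Hox genes sat mostly in the middle of the numbering, with little at positions 1 to 3 and next to none at positions 11 to 13. To compare genes, reads were divided by exon length and each gene is given as its share of the length-scaled signal (TPM) summed over all 38 Hox genes in a library. Hoxc13 is not among the 38, so the shares say nothing of its level at position 13. Positions 4 to 8 together took 78.8% ± 3.52 of this signal in WT and 75.9% ± 1.85 in NPYtet (SD, n = 5 each). Positions 1 to 3 took 3.79% ± 0.67 in WT and 3.997% ± 0.97 in NPYtet, and positions 9 to 13 took 17.4% ± 4.05 and 20.1% ± 2.33. By single position, the shares in WT were 20.6% ± 2.48 at position 7 and 20.3% ± 1.27 at position 8. They were 11.98% ± 3.43 at position 9, 4.93% ± 0.89 at position 10 and 0.44% ± 0.39 at position 11.

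**Figure D1:**
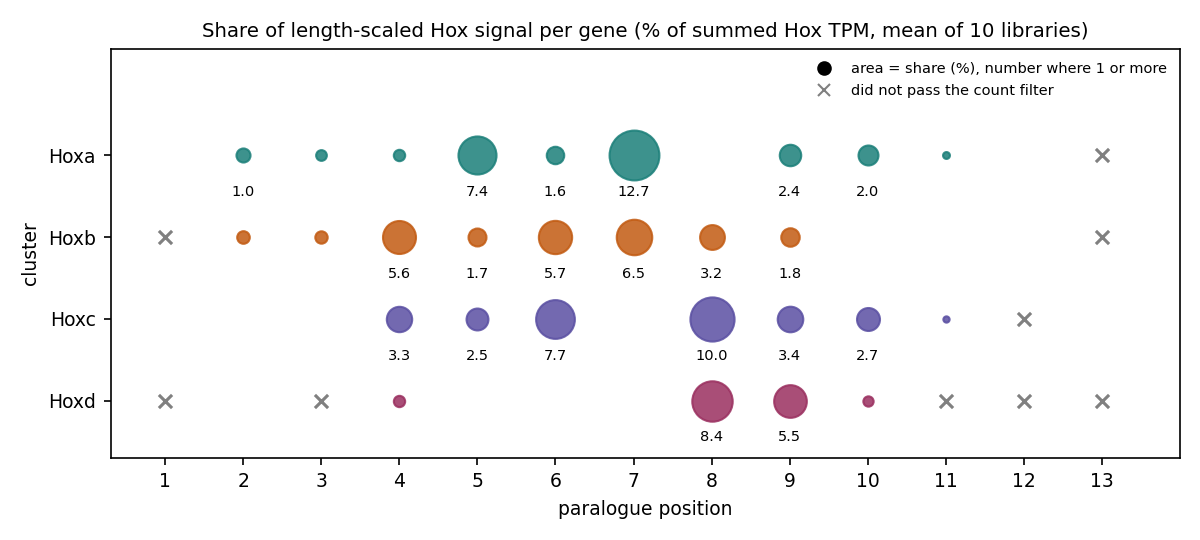
Each disc is 1 of 28 tested Hox genes placed by paralogue position (horizontal) and cluster (vertical), with its area giving its mean share of the summed Hox TPM over the 10 libraries, printed in percent where it is 1 or more; grey crosses are the 9 genes that did not pass the count filter. Signal gathers at positions 4 to 9, led by Hoxa7 at 12.7%, and the crosses lie at positions 1, 3 and 11 to 13.

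Hoxa7 held the largest mean share of the Hox signal, with 13.3% ± 1.98 in WT and 12.2% ± 2.31 in NPYtet. Hoxc8 followed with 8.36% ± 2.29 and 11.6% ± 2.70, and Hoxd8 with 7.90% ± 0.97 and 8.83% ± 1.77. Hoxc6 had 7.28% ± 1.68 and 8.11% ± 0.84, and Hoxa5, which is needed for lung and upper trunk development, had 7.72% ± 1.85 and 7.11% ± 1.33. Hoxb7 had 7.34% ± 1.57 and 5.59% ± 0.75. From Hoxc8 down, each gene overlapped the next in this order within 1 SD in both genotypes, so the means do not settle the order of neighbours. The shares come from the same libraries, and genes were not compared library by library. The Hoxa, Hoxb and Hoxc clusters had shares of like size in WT (29.8% ± 2.36, 29.7% ± 5.79 and 26.1% ± 5.20), above Hoxd at 14.3% ± 3.30.

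Of the 38 genes, 29 passed the filter on low counts (10 of Hoxa, 8 of Hoxb, 7 of Hoxc and 4 of Hoxd), and 27 had a read in all 10 libraries. Hoxb13, which acts at the tail end of the body, and Hoxd11 and Hoxd12, which pattern the limb and digits, had 0 reads in every library. A count of 0 allows up to 3 reads, which is 0.0497 CPM in the library of largest scaled size and 0.199 CPM in the smallest, a limit for counting error only. Hoxd13, the digit gene whose mutation fuses digits, had 0 to 1 read and Hoxa13 0 to 5. Hoxc12 had 0 to 6 reads, Hoxd1 0 to 8, Hoxd3 0 to 16 and Hoxb1 0 to 17. Hoxd3 shares 62.3% and Hoxd4 52.3% of their exon bases with other genes on the same strand, partly each other, so reads there can be split or lost and both levels are uncertain. On the opposite strand Hoxb3 shares 52.9% of its exon bases and Hoxa11 35.0%, and 22 of the 38 share none on either strand. Which strand was counted is not stated.

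Over the 38 genes, the rank correlation of TPM between any pair of libraries ran from 0.889 to 0.990, with a median of 0.957 within a genotype (20 pairs) and 0.958 between genotypes (25 pairs). This is a description across genes, which are not independent replicates, and genes at 0 and genes of high level enter it alike in every library. The mean position weighted by TPM was 6.72 ± 0.16 in WT and 6.84 ± 0.17 in NPYtet (SD, n = 5 each), and the ranges overlapped (6.50 to 6.88 and 6.68 to 7.11). The highest value was that of NPYtet replicate 5, the library of lowest depth.

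Promoter sequences are shown for 4 genes, a pair at position 8 that were well expressed, a strongly expressed gene at position 5 and a gene near 0 at position 13, because Hox promoters are known for dense CG pairs and Polycomb control. They are the 250 bases before the start of transcription, 5′ to 3′ on the gene's strand, from RefSeq on GRCm38.p6. Capitals mark CG pairs. Hoxa5 lies at chr6:52204588-52204837 on the minus strand, Hoxb8 at chr11:96281655-96281904, Hoxd8 at chr2:74704365-74704614 and Hoxd13 at chr2:74667975-74668224, the last 3 on the plus strand.
Hoxa5: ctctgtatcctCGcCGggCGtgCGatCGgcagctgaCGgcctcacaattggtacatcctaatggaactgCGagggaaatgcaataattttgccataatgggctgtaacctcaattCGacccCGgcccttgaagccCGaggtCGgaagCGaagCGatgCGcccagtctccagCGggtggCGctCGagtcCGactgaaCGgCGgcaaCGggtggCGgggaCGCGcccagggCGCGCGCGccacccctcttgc
Hoxb8: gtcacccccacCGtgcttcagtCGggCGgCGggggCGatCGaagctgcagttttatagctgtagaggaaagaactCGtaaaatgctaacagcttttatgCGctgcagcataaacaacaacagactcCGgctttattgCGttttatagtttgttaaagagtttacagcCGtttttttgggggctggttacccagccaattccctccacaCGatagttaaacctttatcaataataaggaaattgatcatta
Hoxd8: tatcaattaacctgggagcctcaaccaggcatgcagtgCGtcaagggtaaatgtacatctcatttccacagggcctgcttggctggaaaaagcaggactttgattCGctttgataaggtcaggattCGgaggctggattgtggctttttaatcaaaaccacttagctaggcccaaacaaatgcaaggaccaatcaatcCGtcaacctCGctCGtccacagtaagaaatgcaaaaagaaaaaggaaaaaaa
Hoxd13: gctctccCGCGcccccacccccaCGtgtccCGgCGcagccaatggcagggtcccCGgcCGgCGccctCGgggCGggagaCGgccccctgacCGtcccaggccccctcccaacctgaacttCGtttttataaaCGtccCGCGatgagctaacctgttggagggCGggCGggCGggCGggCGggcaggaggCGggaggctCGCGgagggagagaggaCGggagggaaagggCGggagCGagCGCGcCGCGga

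The number of CG pairs did not order these 4 genes by their level. Hoxd13, with at most 1 read in a library, had 31 CG pairs and a GC content of 74.4%. Hoxa5, among the 5 genes with the largest Hox shares, had 28 CG pairs and 63.6% GC. Hoxd8, at like expression, had 6 CG pairs and 44.4% GC, and Hoxb8 had 12 and 44.4%. In all, 24 promoters of 22 Hox genes were matched, with a median of 12.5 CG pairs (range 2 to 35) against 6 over the 32851 promoters in the table. At least 20 CG pairs were found in 8 of the 24 (33.3%) and in 17.9% of all promoters. The median was 12.5 for the 16 promoters of genes that passed the count filter and 16 for the 8 of genes that did not. A Hox and Pbx composite motif, TGATNNAT, searched on both strands, was in 4 of the 24 (16.7%; those of Hoxa2, Hoxb1, Hoxb8 and 1 of Hoxd11) and in 7.68% of all promoters. For 17 of the 24 the RefSeq start lay within 100 bases of the GENCODE M21 gene start.

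Genotype was the main comparison of the study, and no Hox gene differed between NPYtet and WT past the threshold. In edgeR, 0 of the 29 tested Hox genes had an adjusted p under 0.05, with 0.00554% of 18060 genes called (1 gene, Npy), and the smallest adjusted p of a Hox gene was 0.999. At an unadjusted p under 0.05 there was 1 Hox gene of 29 (3.45%, Hoxb8) against 3.59% of all genes. DESeq2 called 0 Hox genes, with 0.246% of all genes called, and had 3 at an unadjusted p under 0.05, beside 3.93% of all genes. Limma voom called 0, with 0.0111% of all genes called, and had 1 at an unadjusted p under 0.05, beside 4.58%. The CPM ranges of the genotypes overlapped for every tested Hox gene, where they did not overlap for 0.305% of all genes. Of the 29 fitted differences 17 were above 0 and 12 below (41.4%, against 51.2% of all genes), 24 were within 0.5 on the log2 scale and 28 within 1. Their median absolute log2 fold change was 0.247, against 0.242 over all genes. For 12 of the 29 the 95% interval excluded a 2-fold change either way; for the other 17 the libraries did not narrow the difference that far.

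**Figure D2:**
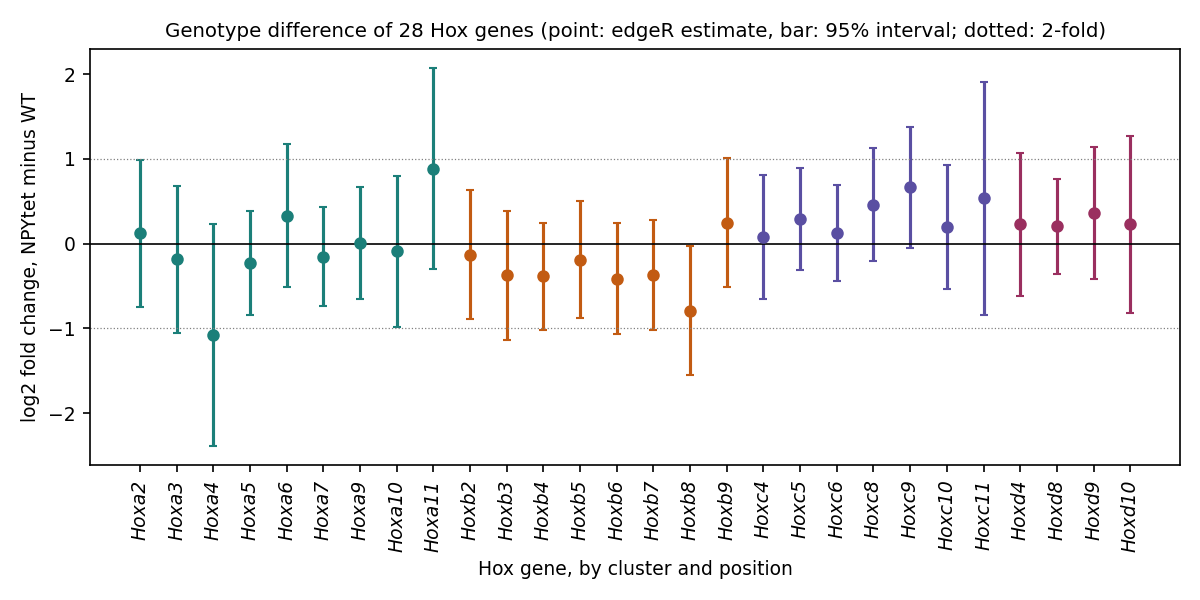
Points are the edgeR log2 fold changes of 28 of the 29 tested Hox genes (NPYtet minus WT) with 95% intervals, ordered by cluster and position, and dotted lines mark a 2-fold change either way. Of those plotted, only the interval of Hoxb8 leaves 0, and its adjusted p is 0.999.

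By cluster median, Hoxb was lowest and Hoxc highest, while the lowest and highest single genes were both in Hoxa. In the Hoxb cluster 1 of 8 tested genes had a log2 fold change above 0 and 7 below, with a median of -0.37 (range -0.79 to 0.25), beside -0.01 over all genes. In the Hoxc cluster all 7 tested genes were above 0, with a median of 0.29 (0.08 to 0.67). The 4 tested Hoxd genes were also above 0, with a median of 0.23 (0.21 to 0.36), and Hoxa was split 5 and 5 with a median of -0.04 (-1.08 to 0.88). None of these genes passed the adjusted threshold. Without WT replicate 1 the Hoxb median was -0.20 and the Hoxd median 0.10, without WT replicate 3 the Hoxd median was 0.38, and the Hoxa median ran from -0.17 without WT replicate 1 to 0.22 without NPYtet replicate 5. Genes of a cluster share cells and libraries and are not replicates of each other.

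Hoxb8, which patterns the trunk and is known for a grooming phenotype when lost, was at 17.2, 11.7, 5.55, 10.8 and 9.05 CPM in WT replicates 1 to 5 and at 7.84, 4.87, 5.97, 4.92 and 8.01 CPM in NPYtet replicates 1 to 5. Of the WT libraries 4 lay above every NPYtet library, and WT replicate 3 lay among them. The log2 fold change was -0.79 (SE 0.36, unadjusted p = 0.0427, edgeR adjusted p = 0.999). It was -0.39 without WT replicate 1 and -0.21 when a hair score, described below, was added to the fit.

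Hoxb6, a thoracic gene, was at 19.2, 13.5, 9.29, 13.8 and 10.4 CPM in WT and 11.6, 6.62, 11.4, 10.4 and 11.4 CPM in NPYtet, with a log2 fold change of -0.41 (SE 0.31) that was -0.20 without WT replicate 1 and -0.27 without NPYtet replicate 2. Hoxb4, known for expanding blood stem cells, was at 21.9, 12.5, 14.4, 22.0 and 13.4 CPM in WT and 16.6, 8.97, 17.2, 14.1 and 12.3 CPM in NPYtet. Hoxb7 was at 15.9, 6.98, 10.3, 14.2 and 11.5 CPM in WT and 8.93, 7.70, 11.7, 10.1 and 8.999 CPM in NPYtet. In all 3 the groups overlapped, and WT replicate 1 or WT replicate 4 held the highest value. Hoxb3, which acts in the hindbrain and neck, was at 6.64, 2.17, 3.53, 3.58 and 3.47 CPM in WT and 5.12, 2.42, 3.14, 4.24 and 2.05 CPM in NPYtet. Log2 fold changes were -0.39 (SE 0.30) for Hoxb4, -0.37 (SE 0.30) for Hoxb7 and -0.37 (SE 0.36) for Hoxb3. Hoxb4 was at -0.23 without WT replicate 4, and Hoxb7 and Hoxb3 at -0.25 and -0.20 without WT replicate 1.

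Hoxc9, which restrains limb-level motor neuron fate in the thoracic cord, was at 6.89, 5.23, 11.6, 4.29 and 5.49 CPM in WT and 10.9, 6.49, 12.9, 9.96 and 14.4 CPM in NPYtet. WT replicates 1 and 3 lay within the NPYtet range and NPYtet replicates 1, 2 and 4 within the WT range. Its log2 fold change was 0.67 (SE 0.33, unadjusted p = 0.0645) and was 0.34 without NPYtet replicate 5. Hoxc8, the most expressed Hoxc gene, was at 36.4, 12.2, 36.8, 25.7 and 16.5 CPM in WT and 31.4, 19.6, 46.1, 45.4 and 42.2 CPM in NPYtet, a log2 fold change of 0.46 (SE 0.31) that was 0.16 without NPYtet replicate 5. The 2 WT libraries labelled female were the high ones in WT.

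Hoxd8, the most expressed Hoxd gene, was at 21.8, 17.2, 25.3, 25.1 and 21.3 CPM in WT and 35.6, 23, 25.8, 24.4 and 23.6 CPM in NPYtet, with a log2 fold change of 0.21 (SE 0.26). NPYtet replicate 1 alone stood above the rest, and without it the value was 0.12. Hoxa7, the most expressed of all, was at 36.4, 28.2, 50.1, 42.5 and 38.9 CPM in WT and 45.2, 29.7, 45.8, 53.03 and 23.5 CPM in NPYtet, with a log2 fold change of -0.15 (SE 0.27). It was -0.31 without WT replicate 1, -0.07 without WT replicate 4 and near 0 without NPYtet replicate 5. The genotypes covered nearly the same range. Hoxa4 was low, at 1.37, 1.69, 1.74, 0.861 and 1.37 CPM in WT and 0.910, 0.668, 1.27, 1.21 and 0 CPM in NPYtet, with a log2 fold change of -1.08 (SE 0.61). NPYtet replicate 5, the shallowest library, had no read of Hoxa4, and without it the Hoxa4 value was -0.61.

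The other tested genes given here overlapped between the genotypes, some only in part. Their log2 differences were within 0.5, apart from Hoxa11 and Hoxc11. For Hoxa3, Hoxa9, Hoxc4 and Hoxc5, 3 NPYtet libraries lay above every WT library, and for these genes other than Hoxc5, 1 lay below. At the head end, Hoxa2, which patterns the hindbrain, ran from 0.370 to 3.01 CPM in WT and from 1.06 to 3.53 CPM in NPYtet. Its log2 difference was 0.12 (SE 0.41), and those of Hoxa3 and Hoxb2 were -0.19 (SE 0.41) and -0.13 (SE 0.36). In the middle of the clusters, Hoxa5 ran from 7.46 to 21.6 CPM in WT and from 8.62 to 21.4 CPM in NPYtet, almost the same span. Hoxc6 ran from 10.9 to 27.8 and from 12.5 to 27.1 CPM, with a difference of 0.12 (SE 0.27). Differences were -0.23 (SE 0.29) for Hoxa5, 0.33 (SE 0.39) for Hoxa6, -0.19 (SE 0.32) for Hoxb5, 0.08 (SE 0.34) for Hoxc4, 0.29 (SE 0.28) for Hoxc5 and 0.23 (SE 0.40) for Hoxd4. At positions 9 and 10, Hoxa9, a gene of blood progenitors and leukaemia, ran from 10.5 to 16.7 CPM in WT and from 6.88 to 18.7 CPM in NPYtet, with a difference of 0.01 (SE 0.31). Hoxd9 ran from 6.92 to 15.6 and from 7.98 to 20.3 CPM, with a difference of 0.36 (SE 0.36). Differences were 0.25 (SE 0.36) for Hoxb9, -0.09 (SE 0.42) for Hoxa10, 0.19 (SE 0.34) for Hoxc10 and 0.23 (SE 0.49) for Hoxd10, the position 10 genes being known for setting the lumbar level and the upper hindlimb. At position 11, Hoxa11 (0.88, SE 0.55) and Hoxc11 (0.54, SE 0.64) were at no more than 1.26 CPM in any library.

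**Figure D3:**
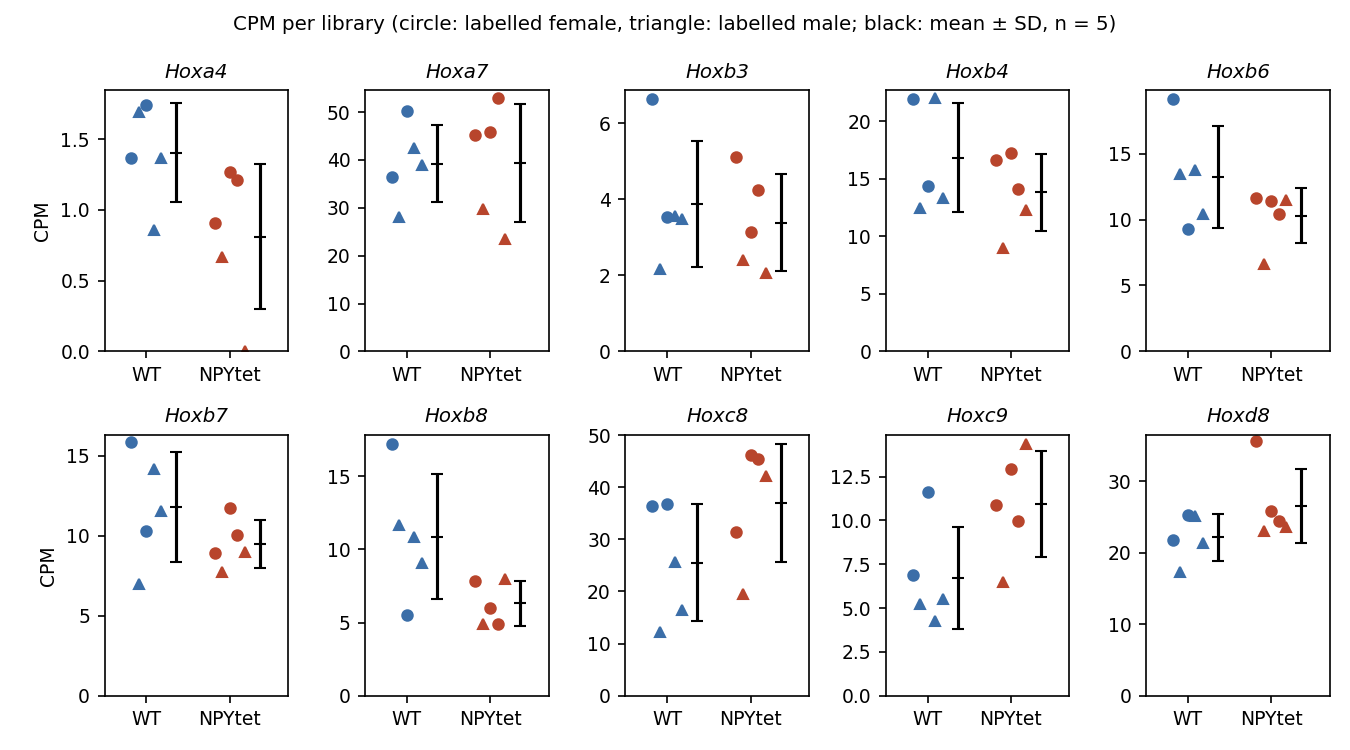
Each panel gives the CPM of 1 Hox gene in the 5 WT (blue) and 5 NPYtet (red) libraries, circles for libraries labelled female and triangles for male, with the mean and SD in black. The genotypes overlap in every panel; Hoxb8 has 4 WT libraries above all NPYtet libraries, and Hoxa4 has a library at 0.

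The share of each cluster was set beside the amount of hair transcripts in each library. Hoxb genes took 33.7%, 32.4%, 19.6%, 32.5% and 30.4% of the Hox TPM in WT replicates 1 to 5 and 22.4%, 22.9%, 21.05%, 19.1% and 25.3% in NPYtet replicates 1 to 5. WT replicate 3 thus sat with the NPYtet libraries. Hoxc genes took 29.3%, 21.5%, 33.7%, 23.9% and 22.3% in WT and 29.3%, 29.3%, 35.8%, 36.4% and 35.9% in NPYtet. A hair score, the mean centred log2 CPM of 18 genes of the hair shaft and inner root sheath, was 3.69, 3.69, -2.36, 3.45 and 2.20 in WT and -5.99, -0.05, -3.17, -4.23 and 2.76 in NPYtet. The WT library with a low hair score was the one with a low Hoxb share, and the NPYtet library with the highest hair score had the highest Hoxb share of its group, though below that of WT replicate 5 at a lower hair score. Hoxc did not follow the score in that library, with 35.9% against 21.5% to 29.3% in the 4 WT libraries with high scores. For Hoxb, NPYtet replicate 1, with the lowest score, had 22.4%, above NPYtet replicates 3 and 4 at higher scores. With this score added to the fit the Hoxb median log2 fold change was -0.07 in place of -0.37 and the Hoxd median -0.01 in place of 0.23, while that of Hoxc was 0.42. The score was high in WT apart from replicate 3 and lower in NPYtet apart from replicate 5. This fit can therefore only partly tell score and genotype apart. The part of hair content in the Hox values was not tested. All 18 hair genes had fitted values below 0 (median -4.13), with 0 called and 6 at an unadjusted p under 0.05, beside 3.59% of all genes.

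Other cell type lists were measured because adult fibroblasts of the skin keep a Hox pattern. Which cells the Hox reads came from was not measured. The fibroblast list had 11 of 12 genes above 0 (median 0.49, 0 called), the dermal papilla list 2 of 10 (median -0.40, 0 called) and the adipocyte list 8 of 8 (median 0.81, 0 called). Epidermal keratinocyte genes had a median of 0.02, endothelial genes 0.33, immune genes 0.13, Schwann cell genes 0.03, muscle genes -0.14 and mammary epithelial genes 0.36. No gene of these lists was called by genotype. At an unadjusted p under 0.05 there were 4 of 8 adipocyte, 3 of 12 fibroblast, 2 of 10 dermal papilla and 3 of 5 mammary genes, beside 3.59% of all genes. The part of these cell types in the Hox values was not tested.

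Npy lies on chromosome 6 at chr6:49822710-49829507 (GRCm38), and the Hoxa genes start 2.33 to 2.43 Mb further along. Among the 76 tested genes within 4 Mb of Npy, 0 were called besides Npy, their median log2 fold change was 0.01, and 2 (2.63%) had an unadjusted p under 0.05 against 3.59% of all genes. These were Gimap3 (0.94, SE 0.39), of a family of lymphocyte GTPases, and Sspo (0.95, SE 0.42). Neither is in the Hoxa cluster. The 10 tested Hoxa genes had 0 called and 0 at an unadjusted p under 0.05. The protein-coding genes tested next to the cluster, Skap2 on the Npy side (0.21, SE 0.31) and Hibadh on the far side (0.10, SE 0.26), did not pass either. Within 2 Mb, 46 genes were tested and 0 called.

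**Figure D4:**
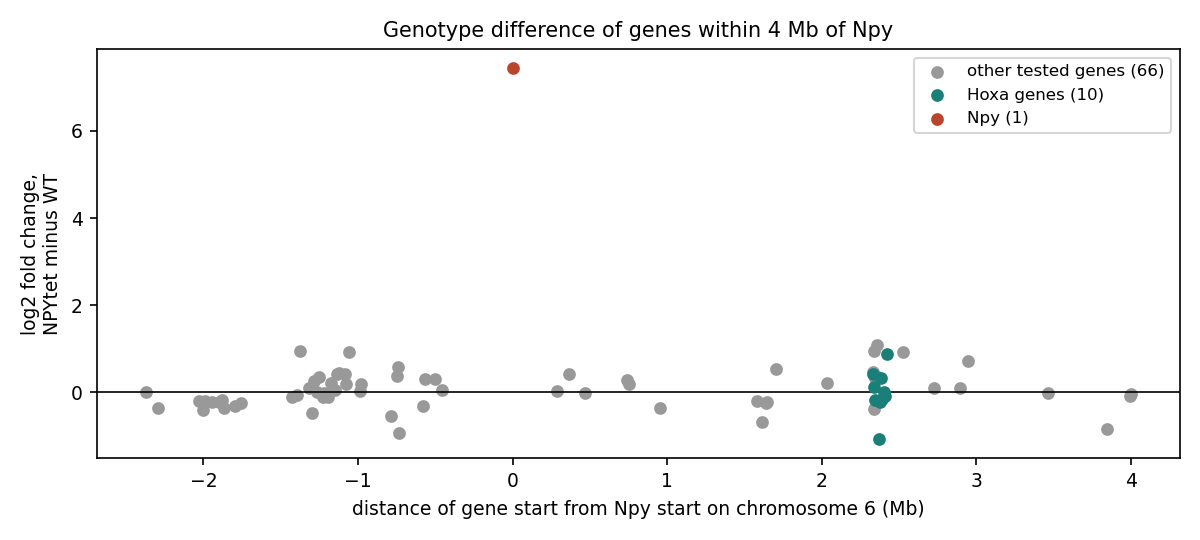
Log2 fold change (NPYtet minus WT) of every tested gene within 4 Mb of Npy against its distance from Npy in Mb, with Npy in red, the 10 Hoxa genes in green and 66 other genes in grey. Npy stands at 7.45 and the other genes lie between -1.08 and 1.09, with the Hoxa genes on both sides of 0.

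The partners and keepers of Hox genes did not differ by genotype past the threshold. All 9 Pbx, Meis and Pknox genes were tested, 6 above and 3 below 0 (median 0.16, 0 called). Among them were Pbx4 (0.59, SE 0.44), Meis2 (0.36, SE 0.35) and Pbx2 (-0.27, SE 0.26). Of 22 chromatin regulators of Hox expression 19 were tested, 6 above and 13 below 0 (median -0.23, 0 called). Among them were Phc1, a Polycomb subunit (-0.62, SE 0.34), and Men1, the menin partner of the Trithorax-type methyltransferases (-0.48, SE 0.29).

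Of 31 other positional transcription factors 23 were tested, 11 above and 12 below 0 (median -0.09, 0 called), with 3 at an unadjusted p under 0.05, beside 3.59% of all genes. Among these were Alx4, a limb and face homeobox gene (-0.99, SE 0.38), and Pax1 (-1.56, SE 0.73). Alx4 was at 12.3, 5.34, 4.11, 6.82 and 3.29 CPM in WT and at 2.38 to 4.49 CPM in NPYtet, so the groups overlapped. Of 9 non-coding genes of the Hox clusters 6 were tested, 5 above and 1 below 0 (median 0.31, 0 called). The 1 below was Hoxb5os, on the strand opposite Hoxb genes, at 3.43, 1.96, 0.588, 3.39 and 1.39 CPM in WT and 1.13, 0.763, 0.853, 0.527 and 0.728 CPM in NPYtet (log2 fold change -1.42, SE 0.51, unadjusted p = 0.0147, edgeR adjusted p = 0.999). WT replicate 3 again lay inside the NPYtet range. Hottip, a non-coding RNA of the tail end of Hoxa, had 0 reads in all libraries, and Hotair, of the Hoxc cluster, had 0 to 2.

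By labelled sex, most fitted Hox differences pointed to lower values in male, but 0 of 29 Hox genes passed the threshold in edgeR. All genes gave 2.48% called, and the smallest adjusted p of a Hox gene was 0.0512, for Hoxc4. The difference was lower in libraries labelled male for 24 Hox genes (82.8%, against 53.8% of all genes) and higher for 5, with a median log2 fold change of -0.50 against -0.07. At an unadjusted p under 0.05 there were 8 lower (27.6%, against 11.5% of all genes) and 2 higher (against 13.1%). The labelled sexes did not overlap for 7 Hox genes (24.1%, against 8.44% of all genes). These were Hoxa2, Hoxa3, Hoxa5, Hoxa10, Hoxc4, Hoxc5 and Hoxc6. In all 7, NPYtet replicate 1, labelled female but with Y-linked reads, lay on the female-labelled side. The separation thus follows the labels and not the Y-linked reads. Median differences were -0.72 in Hoxa, -0.67 in Hoxc, -0.33 in Hoxb and -0.26 in Hoxd.

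Hoxc4 was at 11.2, 12.3, 13.8, 13.7 and 18.3 CPM in the libraries labelled female (WT replicates 1 and 3, NPYtet replicates 1, 3 and 4). It was at 4.81, 7.78, 4.16, 6.52 and 2.98 CPM in those labelled male (WT replicates 2, 4 and 5, NPYtet replicates 2 and 5). The log2 difference was -1.37 (SE 0.35). Hoxa3 was at 5.32, 5.03, 5.83, 5.996 and 7.42 CPM in the first set and 2.11, 3.43, 2.05, 2.26 and 0.794 CPM in the second, a difference of -1.53 (SE 0.41). For both genes every library labelled female lay above every one labelled male. The same order within each genotype follows from this and is no separate result. Hoxc6 had a difference of -0.83 (SE 0.27), Hoxa5 of -0.96 (SE 0.29) and Hoxa2 of -1.43 (SE 0.41). In the other direction, Hoxa11 differed by 1.33 (SE 0.56) and Hoxc11 by 1.74 (SE 0.65), both at no more than 1.26 CPM in any library.

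Summed over the cluster, Hoxa was at 91.2 to 118 CPM in the libraries labelled female and 47.2 to 88.5 CPM in those labelled male, and Hoxc at 94.3 to 121 and 42.9 to 92.4 CPM. Neither pair of ranges overlapped. Hoxb (54.1 to 95.8 and 39.7 to 76.5 CPM) and Hoxd (31.2 to 58.5 and 33.4 to 46.8 CPM) overlapped. NPYtet replicate 1, whose Y-linked reads go against its label, was at 105 CPM for Hoxa and 94.9 CPM for Hoxc, within the female-labelled range.

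**Figure D5:**
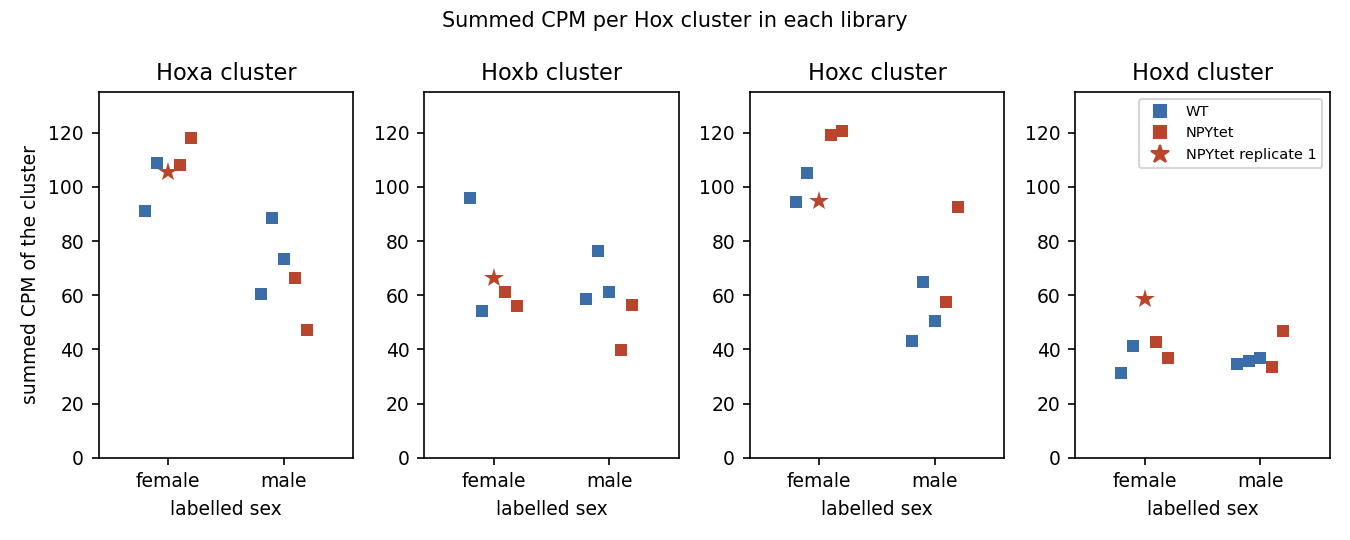
Each mark is a library's summed CPM of a Hox cluster, by labelled sex, WT in blue and NPYtet in red, with a star for the library labelled female that held Y-linked reads. The Hoxa and Hoxc marks of the labelled sexes do not overlap (91.2 to 118 against 47.2 to 88.5 CPM for Hoxa), those of Hoxb and Hoxd do.

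The count of Hox genes called by labelled sex depended on the method. DESeq2 called 5 (Hoxa2, Hoxa3, Hoxa5, Hoxc4 and Hoxc6), all lower in male, with 4.74% of all genes called in that direction, and limma voom 9, all lower, with 17.4%. In edgeR, Hoxc4 was called with upper-quartile scaling (1.19% of genes called lower). Without a filter Hoxa3 and Hoxc4 were called (3.05%). Without WT replicate 4, 4 were called (Hoxa2, Hoxa3, Hoxa5 and Hoxc4; 7.05%). Hoxc6 was called without NPYtet replicate 5 (1.3%), without it and WT replicate 2 (1.51%), and without these and NPYtet replicate 1 (2.55%). WT replicate 2 and NPYtet replicate 5, the low-complexity libraries, are both labelled male. Genes with a read numbered 25883 to 26323 in libraries labelled female. They numbered 19953 to 24803 in those labelled male, apart from WT replicate 4 at 26273. Scaling factors were 1.07 to 1.21 in libraries labelled female and 0.652 to 1.13 in those labelled male. The part of library complexity in the Hox differences was not tested. The hair list had 18 of 18 fitted values above 0 in male (median 3.86, 0 called), but WT replicate 1, labelled female, had a hair score of 3.69, level with the highest in male. Epidermal keratinocyte genes had a median of 0.63, with 2 of 8 lower in male and 1 called, the basal keratin Krt14 (2.79, SE 0.54, edgeR adjusted p = 0.0197). Immune genes had a median of -0.92, with 4 of 6 lower in male and 1 called, the leukocyte gene Ptprc (-1.56, SE 0.38, edgeR adjusted p = 0.0455). Schwann cell genes had a median of -0.66 (5 of 6 lower, 0 called). Fibroblast genes had a median of -0.27 (7 of 12 lower, 0 called). With the hair score in the fit the Hoxc4 difference was -1.07 (edgeR adjusted p = 0.458) and the Hoxc6 difference -1.02 (adjusted p = 0.441). That of Hoxa5 was -1.03, while Hoxa10 shrank from -1.15 to -0.50 and Hoxa7 from -0.55 to -0.15. Over all genes this fit called far fewer by sex than the 448 of the main fit. With a fibroblast score from 12 genes, built like the hair score, the differences of Hoxa2, Hoxa3 and Hoxa5 were -1.44, -1.55 and -0.97. Without it they were -1.43, -1.53 and -0.96. The fibroblast score ran from -0.34 to 0.82 in libraries labelled female and from -0.48 to 0.24 in those labelled male. Its genes went both ways by labelled sex, from -1.72 for Pi16 to 1.27 for Col1a1. A score so alike between the labelled sexes could move these Hox differences little. The part of fibroblasts, keratinocytes, immune cells and Schwann cells in the Hox difference was not tested.

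Among the other positional factors 2 of 23 passed the threshold by labelled sex, beside 2.48% of all genes, and both are limb identity genes of the T-box family. Tbx5, which specifies the forelimb, was at 7.13, 7.69, 7.72, 8.95 and 9.37 CPM in the libraries labelled female and 1.96, 2.48, 2.05, 2.61 and 3.18 CPM in those labelled male. The sets were far apart, with NPYtet replicate 1 on the female-labelled side at 7.72 CPM. The log2 difference was -1.68 (SE 0.31, edgeR adjusted p = 0.0149). Tbx4, which acts in the hindlimb, was at 0.916 to 1.73 CPM and 0.132 to 0.646 CPM, a difference of -1.94 (SE 0.45, edgeR adjusted p = 0.0387). Without the 3 libraries that stand apart the differences were -1.71 (adjusted p = 0.0124) and -1.55 (adjusted p = 0.0450). Tbx5 lost its call with the hair score in the fit (-1.78, adjusted p = 0.177) and without WT replicate 3 (-1.64, adjusted p = 0.0765), NPYtet replicate 3 (-1.68, adjusted p = 0.0552) or NPYtet replicate 4 (-1.67, adjusted p = 0.0554). Tbx4 lost its call with the same covariate (-1.87, adjusted p = 0.337) and without any 1 of 8 libraries (-2.10 to -1.82), keeping it without WT replicate 4 or NPYtet replicate 5 (adjusted p 0.0182 to 0.121 over the 10). With the replicate number as a block neither gene was called, and the differences were -1.57 for Tbx5 and -1.02 for Tbx4. Tbx4 had only 2 to 67 reads in a library. Whether the skin was taken from the same site in every mouse is not stated in the labels. The part of body site in these differences was not tested.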

How the data were processed

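For every library the authors deposited a file of raw counts by Ensembl gene. Per the submitters' processing notes, the tools were STAR 2.5.2, Trimmomatic 0.36, FastQC 0.11.8, bcl2fastq and DESeq2 1.30.1, with mm10. The annotation and strand column are not stated there. Of 49671 IDs, 49412 matched GENCODE M21. Counts were fitted with edgeR 4.0.16 in R 4.3.3 (robust quasi-likelihood test, TMM scaling, genotype and labelled sex as terms) over 18060 genes that passed filterByExpr (minimum count 10, total 15), with Benjamini-Hochberg adjustment over all of them and a threshold of 0.05. Log2 CPM had a prior count of 2. DESeq2 1.42.0, limma voom 3.58.1, other scalings, filters and covariates and leaving out libraries were alternatives. The script was tested on simulated data. Values in every library are given for the top gene of each cluster by TPM and the 8 with the smallest genotype p at a mean of at least 1 CPM. Hoxc4, Hoxa3, Tbx5 and Hoxb5os were added after their values were seen. Members and lists were chosen with earlier results of these data known. Single-gene values of a few genes are not reported here.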

Additional observations from a re-analysis of the deposited data

Results flagged for a closer look

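Of 66 groups of 5 libraries checked, 2 held a library far from the others, where chance gives about 1 in 20. Hoxb6 was at 6.62 CPM in NPYtet replicate 2, below the next library of that genotype at 10.4 CPM. Hoxd8 was at 35.6 CPM in NPYtet replicate 1, above the next at 25.8 CPM; that library is the one labelled female with Y-linked reads.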

How the results depend on the processing

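By genotype, 0 Hox genes were called in any of 22 alternatives, the smallest adjusted p being 0.669, and 0 genes besides Npy were called near Npy in edgeR. Over all genes the main count of 1 became 409 without a filter, 51 in DESeq2, 2 in limma voom, 0 without the 3 libraries that stand apart (chosen after seeing the data, as was leaving out WT replicate 2 and NPYtet replicate 5), and 1 to 8 leaving out 1 library (8 without WT replicate 3). Of the 29 Hox genes 12 kept the sign of their genotype difference in all 22. Among the largest turns, Hoxa10 went from -0.09 to 0.39 without WT replicate 2 and NPYtet replicate 5, Hoxa3 from -0.19 to 0.32 without the sex term and Hoxd4 from 0.23 to -0.25 with the hair score. Hoxa7 turned to 0.0088 without the sex term and to 0.0036 without NPYtet replicate 5 (leave-one-out range -0.31 to 0.0036), and Hoxb6 to 0.0020 with the hair score; the cause was not tested. By labelled sex, Hox calls went from 0 to 1 with upper-quartile scaling, 2 without a filter, 5 in DESeq2, 9 in limma voom, 1 without either added set of libraries and 0 to 4 leaving out 1 library. All genes called by sex went from 448 to 2380 without a filter, 2419 in DESeq2, 5648 in limma voom, 21 with the hair score, 949 without the 3 libraries and 58 to 2725 leaving out 1 library (58 without WT replicate 3, 2725 without WT replicate 4). With the replicate number as a block, 0 Hox genes and 1 gene in all were called by genotype and 0 genes by sex. The correlations of same-numbered libraries ran from -0.256 to 0.644, and those of differently numbered libraries from -0.610 to 0.738. Labelled sex and hair content were not removed first, so these correlations cannot settle whether the numbers pair the mice. For 17 of 29 Hox genes the 95% interval of the genotype difference did not exclude a 2-fold change.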
